A study of Rattus norvegicus with 3 samples.

Results

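Genes of 7 solute carrier families that move amino acids and small neurotransmitters across membranes were described in the rat pineal gland. They were chosen by symbol alone, as Slc1, Slc3, Slc6, Slc7, Slc36, Slc38 or Slc43 followed by a member number, which took 58 of the 16629 genes and unnamed regions listed. One of the 58, Slc7a6os, carries the name of its neighbour Slc7a6 but encodes no transporter, and it was kept out of all counts. The remaining 57 comprised 17 members of Slc6, 15 of Slc7, 9 of Slc38, 7 of Slc1, 4 of Slc36, 3 of Slc43 and 2 of Slc3.

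RNA with poly(A) tails was sequenced in 3 libraries from adult Sprague-Dawley rats kept with 14 h of light a day and 10 h of darkness. One library came from pineal glands at midnight (zeitgeber time 19, counted in hours from lights on) and another from pineal glands at midday (zeitgeber time 7). The third, also from midday, was a pool in equal parts of RNA from 15 other tissues (from the nervous system the retina, cortex, hypothalamus, midbrain, cerebellum, hindbrain and spinal cord, from the endocrine system the adrenal gland and pituitary, and lung, heart, skeletal muscle, liver, small intestine and kidney), so that a transcript of 1 organ was diluted among the rest. With 1 library per group there was no replicate check of any difference, and no test was possible. Levels are FPKM (fragments counted on a transcript, divided by its length and by the library's mapped fragments), and ratios are log2 ratios of FPKM + 1, which understate the fold of genes with low levels. A gene was compared where it reached 1 FPKM in at least 1 of the 2 libraries. In such bulk RNA, fewer cells of a type and less RNA per cell cannot be told apart.

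As background, these carriers divide the work by substrate and by driving force. Slc1 proteins take up glutamate or exchange small neutral amino acids. Slc6 proteins use sodium and chloride to take up GABA, glycine, monoamines, taurine, creatine or neutral amino acids. Most Slc7 proteins are light chains that reach the cell surface only when joined to a heavy chain of Slc3, while others carry arginine and lysine on their own. Slc36 proteins move amino acids together with protons, Slc38 proteins carry glutamine and other neutral amino acids with sodium, and Slc43 proteins let large neutral amino acids pass by facilitated diffusion. The pineal gland takes up tryptophan for serotonin and melatonin, holds much taurine and releases glutamate.

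The stretches around the start sites of 4 transporter genes with high night over day ratios are shown, since Slc7a6 and Slc36a4 passed 2-fold and Slc7a5 and Slc6a6 came next to it among abundant members. They are RefSeq sequences on GRCr8, from 250 bases before to 50 after the annotated start, and their place on rn4, the build of the deposited tables, was not determined. The Slc7a6 stretch is chr19:50993256-50993555 (plus strand), that of Slc36a4 chr8:20801070-20801369 (plus strand), that of Slc7a5 chr19:66872363-66872662 (minus strand) and that of Slc6a6 chr4:125752252-125752551 (plus strand). Capitals mark matches to the motifs searched on both strands, named in the text that follows.
Slc7a6: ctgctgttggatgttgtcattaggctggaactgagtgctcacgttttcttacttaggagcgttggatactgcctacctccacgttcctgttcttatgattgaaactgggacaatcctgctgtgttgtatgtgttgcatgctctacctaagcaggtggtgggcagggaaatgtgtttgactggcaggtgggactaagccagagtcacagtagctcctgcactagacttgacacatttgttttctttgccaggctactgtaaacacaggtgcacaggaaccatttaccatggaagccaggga
Slc36a4: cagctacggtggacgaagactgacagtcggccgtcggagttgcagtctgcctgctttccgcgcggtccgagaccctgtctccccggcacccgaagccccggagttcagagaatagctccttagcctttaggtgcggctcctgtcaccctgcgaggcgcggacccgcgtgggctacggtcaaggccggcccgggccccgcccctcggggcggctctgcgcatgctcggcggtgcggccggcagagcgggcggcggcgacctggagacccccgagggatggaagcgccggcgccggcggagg
Slc7a5: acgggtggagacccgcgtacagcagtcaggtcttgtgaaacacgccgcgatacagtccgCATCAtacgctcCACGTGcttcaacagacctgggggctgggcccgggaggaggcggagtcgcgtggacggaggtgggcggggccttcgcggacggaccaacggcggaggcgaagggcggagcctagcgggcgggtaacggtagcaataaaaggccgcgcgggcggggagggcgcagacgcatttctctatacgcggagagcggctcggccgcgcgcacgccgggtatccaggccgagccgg
Slc6a6: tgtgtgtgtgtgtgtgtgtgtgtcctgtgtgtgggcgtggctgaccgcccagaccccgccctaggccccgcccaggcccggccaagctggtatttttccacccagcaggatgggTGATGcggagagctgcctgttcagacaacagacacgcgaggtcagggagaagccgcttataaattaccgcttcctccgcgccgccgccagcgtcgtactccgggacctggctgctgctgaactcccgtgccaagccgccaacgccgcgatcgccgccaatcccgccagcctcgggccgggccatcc
The motifs were the full cAMP response element TGACGTCA, its shorter core TGACG, the E-box CACGTG, the photoreceptor homeobox core GGATTA and TGATG, the first letters of the amino acid response element. The shorter core lies within the full element, so a match to the full element also counts as a match to its core. Slc7a5 held an E-box 179 bases before the start and TGATG, on the opposite strand, 191 bases before it. Slc6a6 held TGATG 136 bases before its start. The stretches of Slc7a6 and Slc36a4 held none of the 5 motifs. However, the bases just before the annotated start of Slc7a6 read like the end of an intron, so its stretch may not be a promoter. Whether the annotated starts are those used in the gland was not determined, so a missing motif describes the printed stretch alone. Among 33469 rat promoters of the same length, 6.42% held the E-box, 40.1% TGATG, 7.17% the homeobox core, 21.2% the shorter core and 1.83% the full element. For 43 of the 57 transporter genes RefSeq gave 47 promoters, of which 8 held the E-box, 14 TGATG, 7 the homeobox core, 14 the shorter core and 1, that of Slc38a6, the full element.

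Some 32 of the 57 transporter genes reached 1 FPKM in the gland by night and 33 by day, against 52 in the mixed tissues. These are 56.1%, 57.9% and 91.2% of the members, where over all genes and regions the shares were 56.5%, 57.6% and 70.3%. The 57 summed to 865 FPKM by night, 633 by day and 889 in the mixed tissues, or 0.404%, 0.301% and 0.360% of all FPKM. The gland's total was carried by few genes: the 5 highest made up 62.7% of it by night and 57.3% by day, against 35.6% in the mixed tissues. In both pineal libraries 8 genes stood at 20 FPKM or more, namely Slc6a6, Slc38a1, Slc38a3, Slc7a6, Slc1a2, Slc3a2, Slc7a5 and Slc6a9. At the other end, 24 were below 1 FPKM in both, and 9 of these were listed at 0 in both (Slc6a2, Slc6a3, Slc6a5, Slc6a14, Slc6a18, Slc7a12, Slc7a13, Slc36a3 and Slc38a4). Taken by library, 12 of the 57 were listed at 0 by night and 13 by day. Of all 16629 genes and regions, 4378 were listed at 0 by night and 3992 by day. For the counts over both pineal libraries, the share of all genes was not computed.

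**Figure D1:**
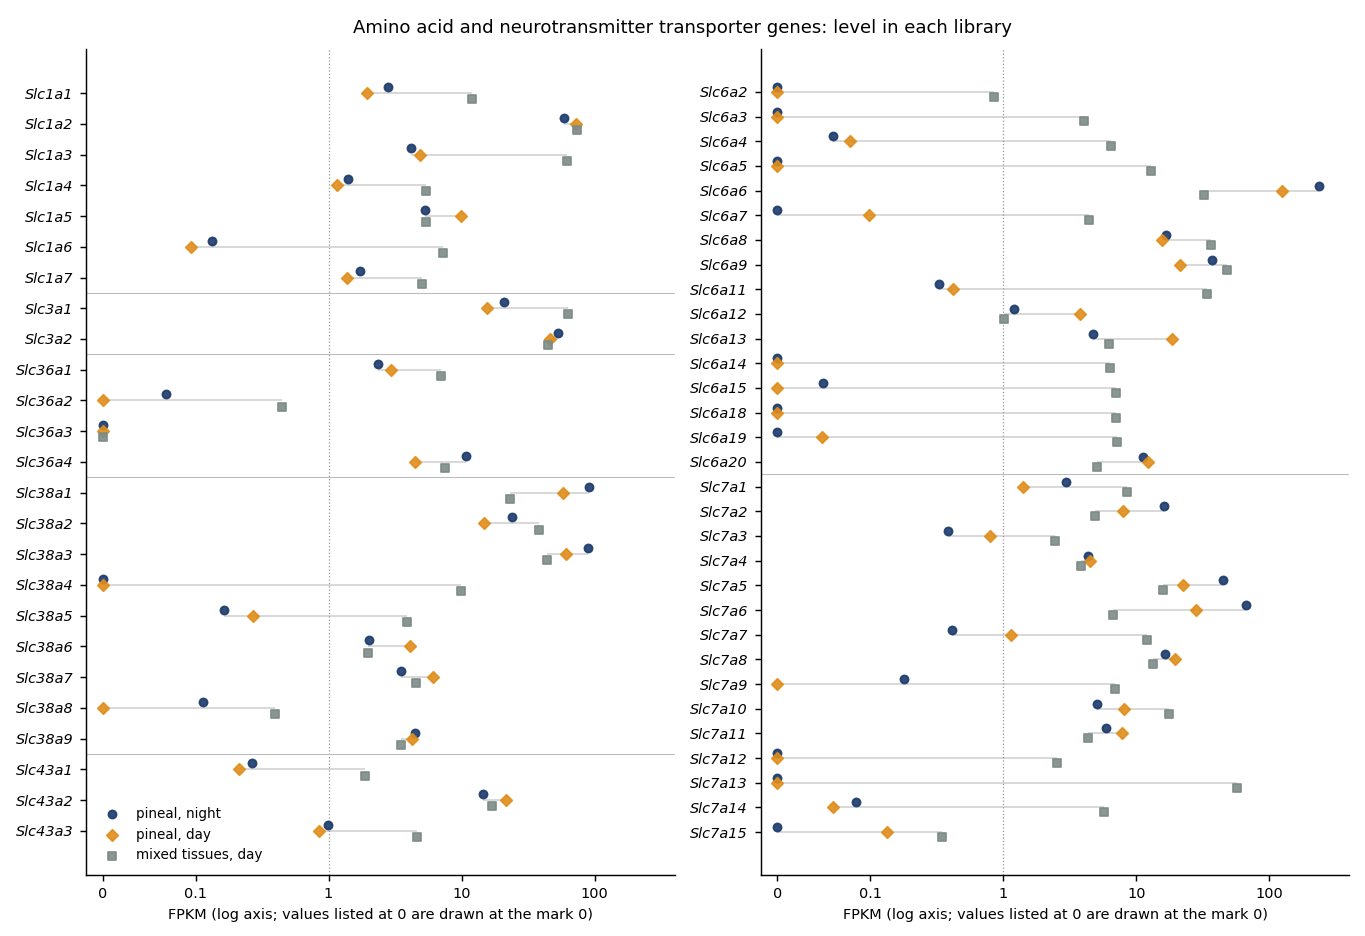
Level of 56 of the 57 transporter genes in FPKM on a log axis, with circles for the pineal night library, diamonds for the pineal day library and squares for the mixed tissues, 1 library each; values listed at 0 are drawn at the mark 0 and the dotted line marks 1 FPKM. Slc6a6 is the highest point of the whole set, at 238 FPKM by night, and 24 genes lie left of the dotted line in both pineal libraries.

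Between night and day, most transporter genes of the gland kept to within 2-fold. Of 33 compared, 2 passed 2-fold on the night side (Slc7a6 and Slc36a4), 2 on the day side (Slc6a13 and Slc6a12) and 29 lay between. That is 6.06% in each direction, where 4.18% of all 9826 genes and regions compared lay past 2-fold on the night side and 2.11% on the day side. The members' median log2 ratio was 0.05, against -0.11 over all genes. Another 3 members were just short on the FPKM + 1 scale, Slc7a5, Slc7a2 and Slc6a6, with log2 ratios of 0.98, 0.93 and 0.93. They passed when each library was divided by its median, which brought the number of higher members to 5. The counting bounds of night and day, computed for a transcript of 1 kb at the estimated depth of each library, did not overlap for 13 of the 33, Slc7a6, Slc36a4 and Slc6a13 among them, and overlapped for Slc6a12. That is 39.4% of the members, where the bounds of 16.0% of all 9826 genes and regions did not overlap; the difference between these shares was not tested. Of the 11 members with at least 20 FPKM in a pineal library, 9 were higher by night and 2, Slc1a2 and Slc43a2, lower. Of all 2776 genes at that level, 46.4% were higher by night. Slc38a2 and Slc3a1 reached 20 FPKM by night only and Slc43a2 by day only, so the filter itself fixed their direction. All genes were filtered in the same way, and the difference between these shares was not tested.

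**Figure D2:**
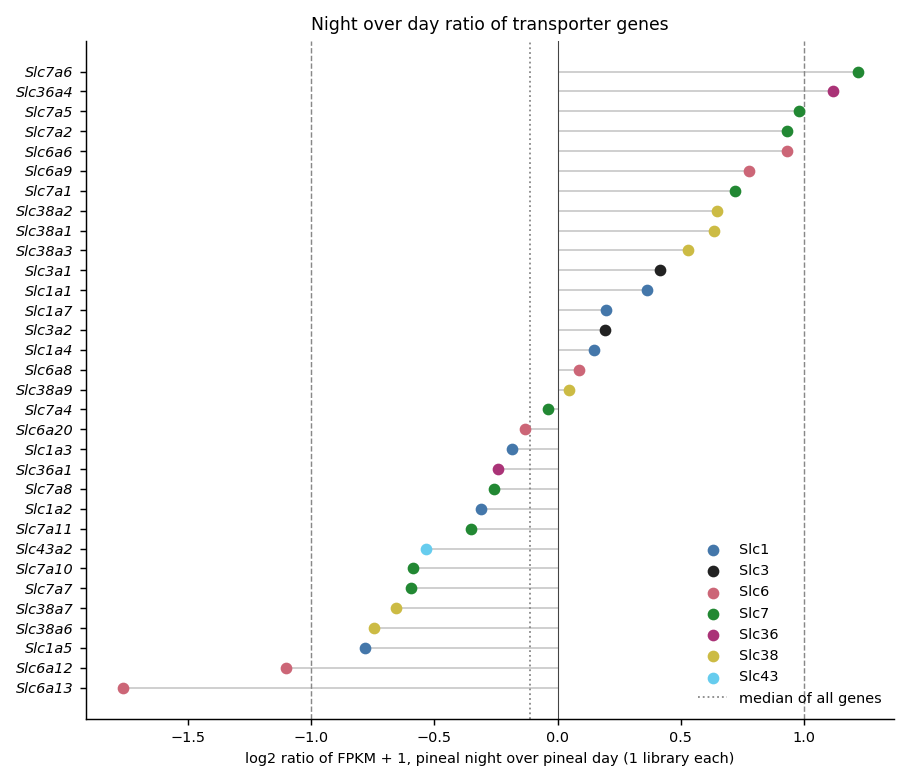
Log2 ratio of FPKM + 1, pineal night over pineal day, for 32 of the 33 transporter genes compared, coloured by family; dashed lines mark 2-fold and the dotted line the median of all genes. Slc7a6 and Slc36a4 lie beyond the line on the right, Slc6a12 and Slc6a13 beyond the line on the left, and Slc7a5 just inside.

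Slc6a6, the taurine transporter (chr4:125875817-125945792, rn4), was the most abundant member in the gland, at 238 FPKM by night and 124 by day, with 32.4 in the mixed tissues. By night it ranked 87 among all genes and regions, and it held 27.5% of the transporters' summed FPKM by night and 19.6% by day. Both pineal libraries lay above the mixed pool, and the night library was 1.91-fold above the day library in FPKM. Slc6a8, the creatine transporter of the same family, measured 16.7 FPKM by night and 15.6 by day, against 36.7 in the mixed tissues. Both genes of taurine synthesis lay within 2-fold between night and day. Csad, a decarboxylase on the way to taurine, measured 31.8 FPKM by night and 32.1 by day, and Cdo1, the cysteine dioxygenase before it, was at 8.93 and 6.26.

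Among heavy and light chains, the night side was led by 2 partners of Slc3a2. Slc7a6, the light chain y+LAT2 that exchanges cationic for neutral amino acids with sodium, was at 67.0 FPKM by night, 28.2 by day and 6.69 in the mixed tissues. Its night over day log2 ratio was 1.22, a 2.37-fold difference in FPKM. Exact 95% Poisson bounds for a transcript of 1 kb were 60.2 to 74.4 by night and 24.8 to 32.0 by day; here and below such bounds rest on an estimated depth and cover counting error alone. Slc7a5, the light chain LAT1 that carries tryptophan and other large neutral amino acids, was at 45.2 FPKM by night, 22.4 by day and 15.8 in the mixed tissues, 2.02-fold higher by night than by day in FPKM. Both genes thus had the same order of libraries, with night highest and the mixed tissues lowest. Slc7a6os, whose span starts 1709 bp beyond the end of Slc7a6 (chr19:36032750-36049384, rn4), measured 11.0 FPKM by night and 10.0 by day, with 8.48 in the mixed tissues, so the neighbours differed in their night over day ratio.

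The other 4 light chains of Slc3a2 were lower by night, inside 2-fold on the scale of FPKM + 1. For each of these 4 the night and day bounds on 1 kb overlapped, and 61.8% of all 9826 genes and regions were also lower by night. Slc7a8 (LAT2, small and large neutral amino acids) measured 16.3 FPKM by night and 19.7 by day, with 13.5 in the mixed tissues. Slc7a11 (xCT, which takes up cystine for glutathione in exchange for glutamate) was at 5.93 and 7.85 FPKM, with 4.32 in the pool. Slc7a10 (asc-1, serine and glycine) was at 5.05 and 8.10 FPKM, with 17.5 in the pool, and Slc7a7 (y+LAT1) at 0.411 and 1.13, with 12.1 in the pool. The night value of Slc7a7 was under the 0.567 FPKM that 3 fragments on 1 kb would give. The heavy chain Slc3a2 itself varied little, with 53.3 FPKM by night, 46.6 by day and 44.7 in the mixed tissues. RefSeq lists a pseudogene that could share reads with it, as it does for Slc7a13. The 6 light chains together came to 2.62 times the FPKM of Slc3a2 by night and 1.88 times by day, against 1.56 times in the mixed tissues, and Slc7a6 made up 47.9% of them by night and 32.3% by day.

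The other heavy chain, Slc3a1 (rBAT), was present in the gland while its known light chains were at or near 0. It measured 21.0 FPKM by night and 15.5 by day, with 63.5 in the mixed tissues. Slc7a9, its partner in cystine reabsorption in the kidney, was at 0.179 FPKM by night and listed at 0 by day, with 6.98 in the pool. Slc7a13, a partner of Slc3a1 known from the mouse kidney, was listed at 0 by night and by day, with 57.1 in the pool. Together these light chains equalled the level of Slc3a1 in the mixed tissues (1.01 times its FPKM), whereas in the gland their sum reached 0.179 FPKM by night and 0 by day. Slc7a12 and Slc7a15, rodent members of the light chain group, were under 1 FPKM in both pineal libraries.

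**Figure D3:**
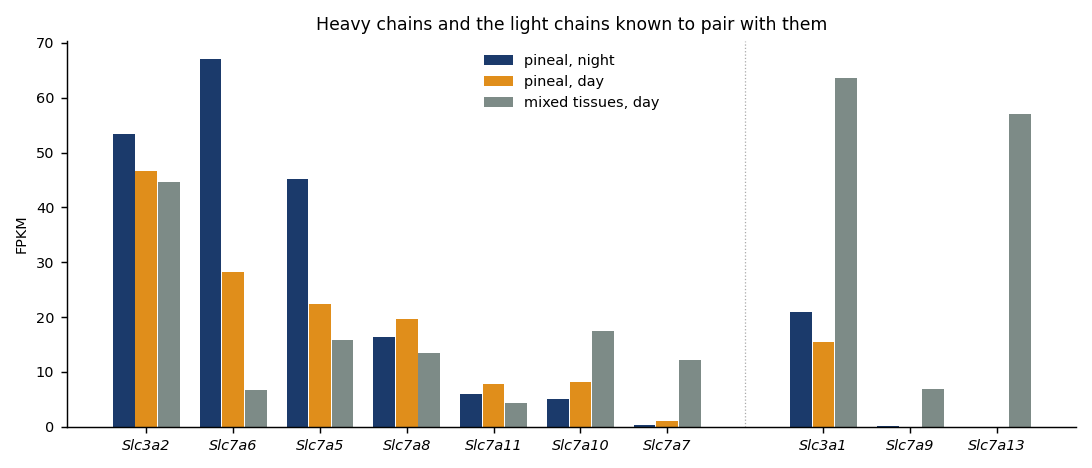
FPKM of the heavy chains Slc3a2 and Slc3a1, each followed by the light chains known to join it, with bars for pineal night, pineal day and mixed tissues (1 library each) from an axis that starts at 0. Slc7a6 at 67.0 FPKM by night stands above its heavy chain, while Slc3a1 has bars in the gland and Slc7a9 and Slc7a13 have almost none there.

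Of the Slc7 members that are not light chains, Slc7a2 (CAT2, a carrier of arginine and lysine) measured 16.2 FPKM by night and 7.99 by day, with 4.88 in the mixed tissues. Its bounds on 1 kb were 12.9 to 20 by night and 6.23 to 10.1 by day. Slc7a1 (CAT1), widely expressed elsewhere, was low, at 2.97 FPKM by night and 1.41 by day, with 8.53 in the mixed tissues. Slc7a4 was at 4.31 and 4.46 FPKM, with 3.86 in the pool, and Slc7a3 and Slc7a14 were under 1 FPKM in the gland. Slc7a2 was the sum of 2 transcript entries with the same span, and the entry NM_001134686 held 97.2% of it by night and 95.2% by day, against 70.5% in the mixed tissues.

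The sodium-coupled carriers of Slc38 made up 24.6% of the transporters' FPKM by night and 23.5% by day, against 14.6% in the mixed tissues. Slc38a1 (SNAT1, a glutamine carrier of neurons) was at 90.7 FPKM by night, 58.1 by day and 23.1 in the pool. Slc38a3 (SNAT3, a glutamine carrier known from astrocytes, liver and kidney) was at 88.4 FPKM by night, 60.9 by day and 44.1 in the pool. Slc38a2 (SNAT2) was at 23.8 by night and 14.8 by day, with 38.3 in the pool. All 3 were higher by night with log2 ratios of 0.63, 0.53 and 0.65, inside 2-fold. Slc38a7 and Slc38a6 had ratios of -0.65 and -0.75, at 3.52 and 2.02 FPKM by night and 6.11 and 4.06 by day. Slc38a9, a lysosomal arginine sensor, was at 4.44 and 4.27 FPKM. Slc38a4, which lies 316 kb beyond Slc38a2 on chromosome 7 (rn4), was listed at 0 in the gland and at 9.88 FPKM in the pool, and Slc38a5 and Slc38a8 were under 1 FPKM in the gland.

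Slc36a4 (chr8:12504817-12534782, rn4), a proton-coupled family member with high affinity for tryptophan and proline, was the other gene past 2-fold on the night side, at 10.9 FPKM by night, 4.48 by day and 7.48 in the mixed tissues. Its night over day log2 ratio was 1.12, and its bounds on 1 kb ran between 8.26 and 14.1 by night and between 3.19 and 6.11 by day. Unlike Slc7a6 and Slc7a5, its day value lay below the pool. Slc36a1, the lysosomal member PAT1, was at 2.34 and 2.95 FPKM, with 6.94 in the pool. Slc36a2 stood at 0.0602 FPKM by night and was listed at 0 by day, and Slc36a3 was listed at 0 in all 3 libraries. Slc43a2 (LAT4), a facilitated carrier of branched-chain amino acids, measured 14.6 FPKM by night and 21.5 by day, with 16.9 in the pool. Slc43a1 and Slc43a3 were under 1 FPKM in the gland.

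On the lower side by night were neighbouring carriers of GABA, betaine and taurine on chromosome 4. Slc6a13 (GAT2; chr4:157736264-157771945, rn4) was at 4.74 FPKM by night, 18.5 by day and 6.2 in the mixed tissues, with a night over day log2 ratio of -1.77. Its bounds on 1 kb were 3.07 to 7.00 by night and 15.8 to 21.6 by day. Slc6a12 (BGT1, the betaine and GABA transporter), which starts 9232 bp beyond the end of Slc6a13, was at 1.21 FPKM by night, 3.74 by day and 1.01 in the mixed tissues, a log2 ratio of -1.10. Its bounds of 0.462 to 2.57 and 2.57 to 5.26 met, and it was not compared with a filter at 5 FPKM. Both genes were thus above the pool by day and nearer to it by night. Slc6a13 is known from the meninges, and 5 of 6 fibroblast and meningeal markers were also lower by night (Col1a1, Col1a2, Col3a1, Dcn and Lum; Pdgfra was not), as were 61.8% of all 9826 genes and regions. None of the 6 was past 2-fold, and their sum was 180 FPKM by night and 242 by day, or 0.744 times. Their part in the result was not tested.

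Slc6a11 (GAT3), a carrier of GABA known from astrocytes, was low in the gland, at 0.330 FPKM by night and 0.423 FPKM by day, against 33.8 in the mixed tissues. Of the glycine carriers, Slc6a9 (GlyT1) measured 37.3 FPKM by night and 21.3 by day, with 48.3 in the pool, a night over day log2 ratio of 0.78. Slc6a5 (GlyT2, of inhibitory neurons) was listed at 0 in both pineal libraries and at 13.0 FPKM in the pool.

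The plasma membrane carriers of monoamines were at or near 0. Slc6a4, the serotonin transporter, measured 0.0522 FPKM by night and 0.0707 by day, below the floor of 3 fragments on 1 kb (0.567 FPKM by night and 0.343 by day), against 6.44 in the mixed tissues. Slc6a2, the noradrenaline transporter, and Slc6a3, the dopamine transporter, were listed at 0 in the gland and at 0.845 and 4.06 FPKM in the pool. The enzymes of serotonin in the same libraries were high: Tph1, tryptophan hydroxylase, measured 4245 FPKM by night and 4665 by day, and Ddc, the decarboxylase after it, was at 288 and 171. The vesicular monoamine carriers Slc18a1 and Slc18a2 were at 1.01 and 1.96 FPKM by night and 0.727 and 2.30 by day. Of 4 markers found of sympathetic nerve cells, whose fibres reach the gland, Th and Dbh were under 0.1 FPKM in both pineal libraries, Npy measured 3.25 FPKM by night and 2.79 by day. With Slc18a2, their sum was 5.27 FPKM by night and 5.14 by day, against 39.5 in the pool. Of the neutral amino acid carriers of the Slc6 family, Slc6a20 (an imino acid carrier) measured 11.2 FPKM by night and 12.3 by day, above the 5.05 of the pool, and the other 5 (Slc6a7, Slc6a14, Slc6a15, Slc6a18 and Slc6a19) were under 0.1 FPKM.

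Among the glutamate carriers, most of the level in the gland was that of Slc1a2. This gene (GLT-1) was at 58.4 FPKM by night, 72.6 by day and 74.2 in the mixed tissues, and it made up 86.9% of the FPKM of the 5 glutamate carriers by night and 89.8% by day, against 46.3% in the pool. Slc1a3 (GLAST), the other carrier of astrocytes, was at 4.15 and 4.85 FPKM, against 61.8 in the pool. Slc1a1 (EAAC1) was at 2.78 and 1.94, against 12, and Slc1a7 (EAAT5, known from photoreceptors) at 1.73 and 1.38, against 5. Slc1a6 (EAAT4, of Purkinje cells) was under 1 FPKM in the gland and at 7.30 in the pool. The astrocyte marker list, of which 5 of 6 genes were found, summed to 29.0 FPKM by night and 46.9 by day, against 579 in the mixed tissues. Of the carriers of small neutral amino acids, Slc1a5 (ASCT2) measured 5.31 FPKM by night and 9.84 by day, with 5.39 in the pool, and Slc1a4 (ASCT1) was at 1.39 and 1.16, with 5.37.

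Similar sums of Slc1a2 hid different transcript entries. Both entries start at the same base of chromosome 3 (87870558, rn4), and one ends at 87988864 and the other at 87992401. The gene lies on the plus strand in RefSeq, so they differ towards the 3′ end. Variants of Slc1a2 that differ in the C-terminal end of the protein are known. The entry with the nearer end (NM_001035233) was at 42.4 FPKM by night, 54.6 by day and 6.50 in the mixed tissues, or 72.5%, 75.1% and 8.75% of the gene. The entry with the farther end (NM_017215) was at 16.0 FPKM by night, 18.1 by day and 67.7 in the mixed tissues. By day the first was 8.39-fold higher and the second 3.75-fold lower in the gland than in the mixed tissues. The split depends on how the authors' software divided reads between overlapping entries.

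**Figure D4:**
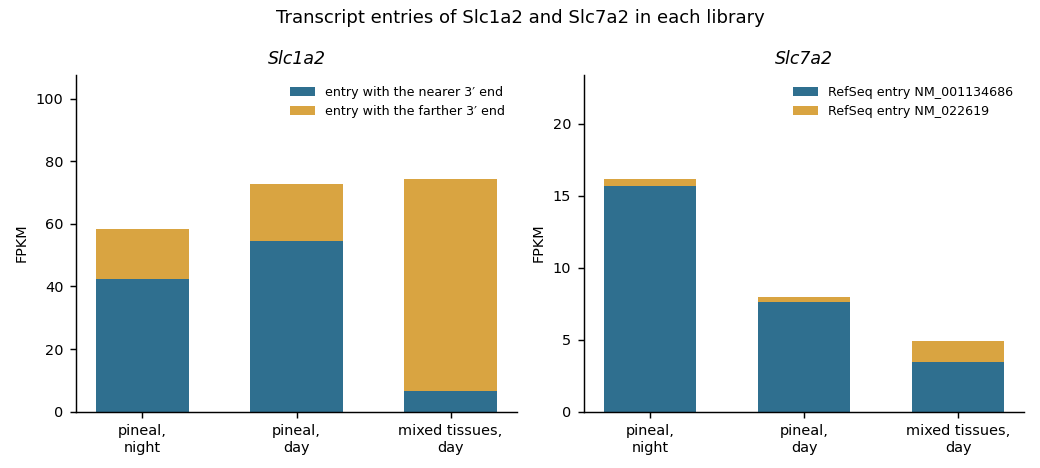
FPKM of the transcript entries of Slc1a2 and Slc7a2, stacked, in the pineal night, pineal day and mixed-tissue libraries (1 library each), from axes that start at 0. The Slc1a2 entry with the nearer 3′ end makes up 75.1% of the bar by day and 8.75% of the bar of the mixed tissues.

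Set against the mixed tissues by day, the members as a group lay on the low side in the gland. Of 52 compared, 0 were 4-fold higher or more, 18 were 4-fold lower or more and 34 between, with a median log2 ratio of -1.28. Of all 11934 genes and regions compared, 2.29% were 4-fold higher or more and 13.2% 4-fold lower or more, with a median of -0.27. With 34.6% of members lower, their share stood above that of all genes, which is a description of these libraries and not a test. Of the Slc6 family 10 of 16 were lower, of Slc7 4 of 14, of Slc1 3 of 7, of Slc38 1 of 8, and of Slc3, Slc36 and Slc43 none. Among the lowest ratios were those of Slc7a13 (-5.86), Slc6a11 (-4.61), Slc6a5 (-3.81) and Slc38a4 (-3.44). Of these, Slc7a13, Slc6a5 and Slc38a4 were listed at 0 in the gland, so their ratios are set by the added 1 FPKM.

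At night, 2 of 52 members were 4-fold higher or more than in the mixed tissues of midday, Slc7a6 (log2 3.14, 10.0-fold in FPKM) and Slc6a6 (log2 2.84, 7.33-fold), and 18 were 4-fold lower or more (median -1.26). Over all 11951 genes and regions 3.09% were higher and 14.4% lower by that measure. Both comparisons use the same mixed library, and the one at night differs in time of day as well as tissue. By day the ratios of these genes were just short of 4-fold, 1.93 for Slc7a6 and 1.90 for Slc6a6. A total of 17 members were 4-fold lower or more at both times, and the share of all genes lower at both times was not computed. In FPKM, with no fold required, 14 members were above the pool in both pineal libraries: Slc6a6, Slc6a12, Slc6a20, Slc3a2, Slc7a2, Slc7a4, Slc7a5, Slc7a6, Slc7a8, Slc7a11, Slc38a1, Slc38a3, Slc38a6 and Slc38a9. Some were nearly level with it, such as Slc38a6 (2.02 FPKM by night against 1.97) and Slc3a2 (46.6 by day against 44.7). The share of all genes above the pool at both times was not computed. Taken singly, 18 of 52 members and 4554 of all 11934 genes and regions had ratios above 0 by day. By night these were 15 of 52 and 4137 of 11951.

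**Figure D5:**
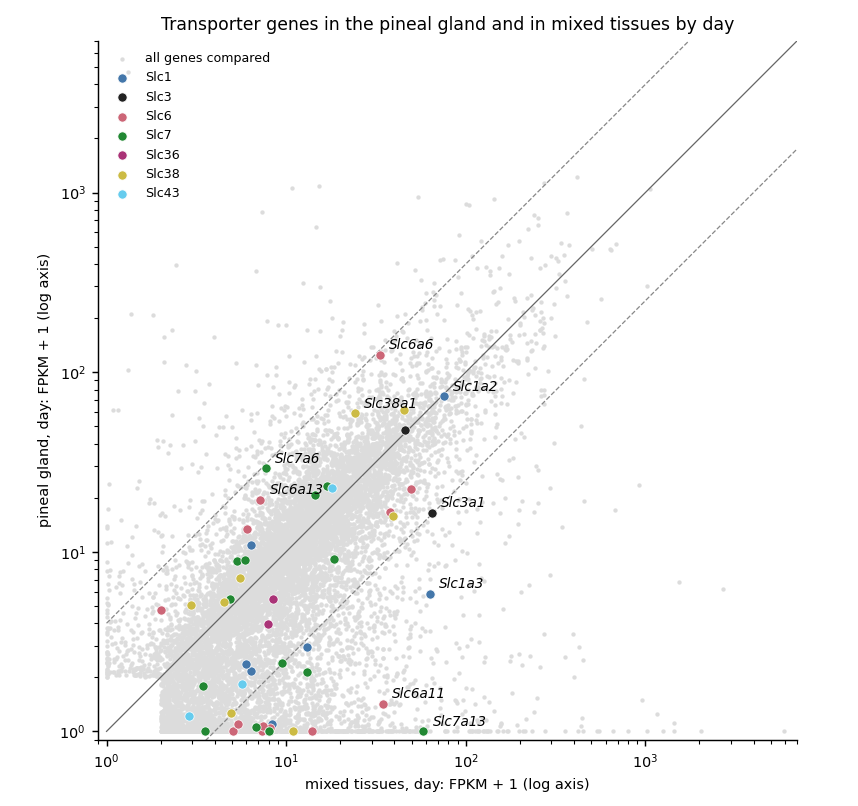
FPKM + 1 of each gene in the pineal gland by day (vertical) against the mixed tissues by day (horizontal), both on log axes; grey points are all genes compared, coloured points 51 of the 52 transporter genes by family, the full line equality and the dashed lines 4-fold. Slc6a6 and Slc7a6 lie nearest the upper dashed line, and 17 of the genes drawn lie on or beyond the lower one.

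Position grouped some of the members that were low in the gland. Slc6a19, Slc6a18 and Slc6a3 follow each other on chromosome 1 with gaps of 3135 bp and 87.5 kb (rn4), and all 3 were under 0.1 FPKM by night and by day. Markers of the proximal tubule and intestine, where Slc6a19 takes up neutral amino acids, summed to 1.78 FPKM by night and 1.33 by day, against 299 in the pool. Tmem27, a protein that brings Slc6a19 to the surface of kidney cells, was at 0.140 and 0.171 FPKM, against 32.9. Other neighbours parted: Slc38a1 and Slc38a2, 48.9 kb apart on chromosome 7, lay 2.52-fold above and 2.59-fold below the pool by day, and Slc7a7 and Slc7a8, 329 kb apart on chromosome 15, lay 10.7-fold below and 1.46-fold above it.

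Genes linked to these carriers were read from lists made by function. Of 11 genes of the amino acid response found, 2 passed 2-fold on the night side, 0 on the day side and 9 lay between (median log2 ratio 0.17), beside 4.18% and 2.11% of all genes and a median of -0.11. Ddit3, the stress factor CHOP, measured 90.0 FPKM by night and 30.7 by day, and Eif4ebp1, a brake on translation, was at 6.62 and 2.42. Ddit4 (28.4 and 13.8 FPKM), Trib3 (3.37 and 1.59) and Nupr1 (2.51 and 1.05) were past 2-fold in FPKM but not on the FPKM + 1 scale. In the same list 5 of the 11 were lower by night. Asns, asparagine synthetase and a classical target of this response together with several light chains, measured 63.5 FPKM by night and 74.1 by day, with 15.4 in the mixed tissues, and Atf4, its transcription factor, was at 78.0 and 69.2, with 102. The 3 genes of glutathione synthesis lay within 2-fold between night and day, with Gclc at 12.6 FPKM by night and 12.4 by day, against 73.1 in the pool. Of 7 vesicular carriers, 4 could be compared by night and day, and Slc17a6, a glutamate carrier of synaptic vesicles, was the 1 past 2-fold, at 116 FPKM by night and 22.8 by day. Slc17a7, its close relative, was at 499 and 582, and Slc32a1, the vesicular GABA carrier, listed at 0 by night and at 0.0669 by day, against 24.2 in the pool. Of the carriers of other families, 3 of 5 were found: Slc25a22, a mitochondrial glutamate carrier, measured 98.9 FPKM by night and 78.2 by day, Slc16a10, an aromatic amino acid carrier, was at 2.64 and 2.28, and Slc25a18 was under 1. Arl6ip5, known to bind Slc1a1 and slow its work, measured 160 FPKM by night and 313 by day, a log2 ratio of -0.96.

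Tissue markers matched the labels of the libraries, as all 6 pinealocyte markers were 4-fold or more above the mixed tissues by night and by day. Markers of other cell types were also measured in the glands. By night and by day, the 6 oligodendrocyte markers summed to 16.1 and 30.1 FPKM, the 5 endothelial markers found to 17.5 and 20.9, and the 6 microglial markers to 25.9 and 31.2. The sums of all 3 lists, like those of astrocytes and fibroblasts, were lower by night, at 0.534 to 0.837 times the day value, and Cldn5 was listed at 0 in all 3 libraries. Not every gene of the 3 lists followed its sum. Pecam1 (6.62 FPKM by night and 6.23 by day), Cx3cr1 (3.73 and 3.30), Tmem119 (1.29 and 0.672) and Mag (0.137 and 0.0635) were higher by night. Cnp alone was at 7.93 and 18.2 of the oligodendrocyte sums. Of all 9826 genes and regions, 61.8% were lower by night. Slc7a5, Slc7a1 and Slc3a2 are also carriers of brain endothelium, and whether cell composition has a part in the values above was not tested. Of the 5 neuronal markers found, 4 were under 1 FPKM in both pineal libraries, while Syt1, a synaptic vesicle protein, measured 131 FPKM by night and 105 by day, above the 63.8 of the pool. Of the 4 liver markers found, Alb and Cyp2e1 were listed at 0 in the gland and Serpina1 measured 2.52 FPKM by night and 6.41 by day. Ttr, the fourth, measured 607 FPKM by night and 516 by day, with 685 in the pool.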

How the data were processed

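Poly(A) RNA of 3 libraries was sequenced as 51-base paired ends, 1 lane each. The authors deposited FPKM per RefSeq entry and for unnamed regions, and per the submitters' processing notes they used TopHat 1.3.1, Cufflinks 1.2.0 and build rn4. Strand use was not given in the sources used here. Entries of 1 symbol were summed (Python 3.11.15, pandas 2.3.3), and log2 ratios were taken of FPKM + 1. Genes of at least 1 FPKM in 1 of the 2 libraries were compared. The text counts members past 2-fold between night and day and past 4-fold against the mixed tissues, beside the same share of all genes. All members enter the counts, but 1 is not reported here by name or drawn. Other genes named came only from lists made by function or cell type. The members and lists were chosen with earlier results of these data known. No p-value was computed, since each group had 1 library. The counting was checked on simulated data.

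The files hold no read counts. Depth was estimated from the smallest FPKM steps of single-exon olfactory receptor genes, as 5.29 fragments per kb at 1 FPKM by night (from 4 gene models), 8.75 by day (20) and 9.49 in the mixed tissues (17). The next step lay at 1.76 times the smallest by night (1 gene model), 1.97 by day (3) and 1.98 in the mixed tissues (3). The night depth is thus the least certain. Intervals and floors (3 fragments) take a transcript of 1 kb, since transcript lengths were not used here, and cover counting error only. Deposited starts were raised by 1 to count bases from 1. Promoters were matched by symbol to RefSeq (GRCr8). Alternatives were other pseudocounts (0.1 and 5), a filter at 5 FPKM or none, libraries divided by their median and the highest entry per symbol. Counting Slc7a6os with the others was added after the data were seen.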

Additional observations from a re-analysis of the deposited data

How the results depend on the processing

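Of 42 counts recomputed under alternatives, 32 stayed within 1.5 times the reported count and 10 did not. The 21 recomputed medians kept their sign but not their size: the members' median log2 ratio ran between 0.03 and 0.19 for night over day, between -1.65 and -0.74 for day over the mixed tissues and between -1.56 and -0.64 for night over the mixed tissues. With 0.1 FPKM added, the 18 members at least 4-fold lower than the mixed tissues became 25 by day and 23 by night. The share of all genes compared rose with them, from 13.2% to 21.9% by day and from 14.4% to 23.7% by night. Between night and day, the 2 members at least 2-fold higher by night became 5 with 0.1 FPKM added, 5 with libraries divided by their median and 1 with 5 FPKM added. Of all genes compared, 4.18% were higher as reported, and 5.42%, 4.65% and 2.35% under these settings. The 2 members lower by night became 3 with 0.1 FPKM added, with Slc7a7 the new one. They became 1 with 5 FPKM added and 1 with a filter at 5 FPKM, which leaves out Slc6a12. Of all genes compared, 2.11% were lower as reported, and 5.27%, 0.651% and 2.17% under these settings. For the gland by day against the mixed tissues, the 0 members at least 4-fold higher became 1 with 0.1 FPKM added (Slc7a6), 2 with libraries divided by their median (Slc6a6 and Slc7a6) and 1 with the highest entry per symbol (Slc1a2). The share of all genes compared was 2.29% as reported, and 3.55%, 2.65% and 2.32% under these settings. The 18 members at least 4-fold lower became 4 with 5 FPKM added, by day and by night, which follows from the larger added value. Of all genes compared, 4.37% by day and 4.63% by night were then at least 4-fold lower. Dividing by the median moved the median log2 ratio of all genes from -0.27 to -0.16 by day against the mixed tissues and from -0.36 to -0.19 by night. Among ratios of single genes, 228 stayed on their side of the fold, 31 no longer passed it (30 of them with 5 FPKM added) and 5 newly passed it. No paired analysis was possible because each group has 1 library, and for the same reason no library could be left out. The night library was the least deep, at an estimated 60.5% of the day library, though its depth rests on 4 gene models. On that estimate, members under about 0.567 FPKM by night cannot be told from 0 on 1 kb.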
